A study of Mus musculus with 24 samples.

Results

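Photobiomodulation therapy (PBMT) with 830 nm light was compared with control treatment in the tibialis anterior muscle of mice run to exhaustion on a treadmill. The comparison takes the samples titled "PBM Fatigue" 1 to 6 against those titled "Fatigue" 1 to 6, which are 12 of the 24 mice of the series; the other 12 were not run and enter only in the last paragraph. All were wild-type C57BL/6J males of 5 to 7 weeks. PBMT mice received light from an 830 nm LED panel at 25 mW/cm2 and 30 J/cm2 for 20 min, ran 24 h later and gave the left muscle right after the run, while control mice were shaved, depilated and anesthetized without light and then ran. RNA was sequenced from poly(A) libraries that keep the strand. The run times of single mice were not used here, so an effect of light on the muscle and an effect of a longer or shorter run cannot be told apart.

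Photobiomodulation uses red or near infrared light, and cytochrome c oxidase, the last complex of the respiratory chain, is the absorber most often proposed for it. Exhausting exercise induces immediate early genes, which code mainly for transcription factors such as FOS and EGR1 and whose transcripts appear within minutes of a stimulus and decay soon after, and heat shock genes, which code for chaperones. The tibialis anterior of the mouse consists almost wholly of fast fibers and lies along the tibia, joined to it by connective tissue and to the foot by a tendon.

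Each library held 53122528 to 68726155 counts, with 19978 to 21198 genes counted at least at 1, and the 10 genes with most counts took 24.9% to 27.2% of a library. Levels are given as CPM (counts scaled to the same library size), and levels of different genes are compared only per kilobase of exon. The fast fiber list (13 genes of the contractile apparatus and calcium handling of fast fibers) summed to 150950 CPM in the lowest control, 183780 at the median and 197035 in the highest, and to 156242, 176846 and 190688 CPM in PBMT mice; from here on, 3 values in a row are the lowest, median and highest mouse of a group, controls first. Fast fiber transcripts made up a similar share in both groups, and control 5 stood below the other 11 mice. Per kilobase, the mean of Myh4, the myosin of the fastest fibers, was 7817 CPM per kb in both groups, against 1.01 CPM per kb in controls and 1.51 in PBMT mice for Myh7, the myosin of slow fibers. Of the hair follicle list, 7 of 9 genes had no count in any of the 12 mice, and none was tested. The samples are bulk muscle, in which fewer cells of a type and less RNA per cell cannot be told apart.

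No gene passed an adjusted p under 0.05 in edgeR (0 of 14574 genes tested, 0%); the smallest adjusted p was 0.9998. DESeq2 called 2 of 27916 genes (0.00716%), limma voom 0 and the fit with a replicate block 1 (Trp63). Without adjustment, edgeR had 157 genes higher with PBMT (1.08% of those tested) and 73 lower (0.501%) at p under 0.05, DESeq2 458 in all. The 230 genes of edgeR are fewer than the share of 0.05 of all genes tested that chance gives at that p. Over all genes tested, 7578 were higher and 6996 lower, the median log2 fold change (PBMT over control) was 0.00, the median size without sign was 0.07 and the 95th percentile of the size was 0.42.

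The 95% intervals show how large a response these 12 mice leave room for. For 12889 of 14574 genes (88.4%) the whole interval lay within a 2-fold change in either direction, and for 10335 (70.9%) within 1.5-fold. Only 1 gene had an interval wholly beyond a 1.5-fold change and 0 genes had an interval wholly beyond a 2-fold change, while 97 (0.666%) had an interval that reached past 4-fold. The 1 gene is not among those named here, and the intervals of Trp63 and Dusp2 below start short of 1.5-fold, at a log2 of 0.54 and 0.52. What could be bounded depended on the level. Of 1138 genes at a mean of 100 CPM or more, 98.9% were held within 2-fold and 96.1% within 1.5-fold; of 5693 at 10 to 100 CPM, 98.7% and 94.9%; of 4880 at 1 to 10 CPM, 94.6% and 74.3%; and of 2863 below 1 CPM, 53.3% and 7.48%. Among the genes at an unadjusted p under 0.05 in edgeR, 66 had a mean of 10 CPM or more, and 64 of these had a fold change under 1.5. The exceptions, named after the values were seen, were Bdh1, which codes for a ketone body enzyme, at a log2 fold change of 0.65, and the unnamed transcript CT010467.1 at 1.02, which became 0.58 without PBMT 6.

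Trp63 and Dusp2 are the genes DESeq2 called. Trp63, a transcription factor of the p53 family, was at 5.30 CPM in the lowest control, 7.29 at the median and 8.35 in the highest, and at 8.08, 13.3 and 15.8 CPM in PBMT mice, a log2 fold change of 0.89 (95% interval 0.54 to 1.24; DESeq2 adjusted p 0.00352, edgeR adjusted p 0.9998). Only PBMT 2 lay below the highest control. In the fit with a block on the replicate number, Trp63 had an adjusted p of 0.00543 (log2 0.88). The deviations of mice that share a number correlated at -0.103 (number 2) to 0.342 (number 5). Trp63 is also a marker of the basal layer of skin, so skin genes were read beside it. The keratinocyte list (15 genes) summed to 11.4, 12.7 and 13.8 CPM in controls and 12.1, 18.2 and 21.3 CPM in PBMT mice, but Trp63 was its most counted gene; without Trp63 it summed to 4.49, 5.33 and 8.51 CPM and 4.05, 5.27 and 6.05 CPM, so the other skin genes were not higher with PBMT at the median. Of the other skin keratins, Krt15 and Krt77 had no count in any mouse, Krt5 was at 0.517 CPM in control 2, 0.0175 in PBMT 4 and 0 elsewhere, and Krt14 was at 2.02 CPM in control 2, 0.0145 in PBMT 6 and 0 elsewhere. Krt10 was counted in every mouse, at 1.34 to 1.98 CPM in controls and 1.14 to 1.95 CPM with PBMT. In all, 5 genes of the list were tested, 3 higher and 2 lower (median log2 fold change 0.05, from -0.06 to 0.17 with 1 mouse left out). Without the filter on low counts the list median was -0.35. Dusp2, a phosphatase that switches off MAP kinases, was at 0.647, 0.975 and 1.46 CPM in controls and 1.35, 1.94 and 2.37 CPM in PBMT mice, a log2 fold change of 0.96 (95% interval 0.52 to 1.40; DESeq2 adjusted p 0.0387). Again 5 of 6 PBMT mice were above the highest control. Among the MAP kinase phosphatases as a list (9 tested), 6 were higher and 3 lower, with Dusp2 alone at an unadjusted p under 0.05 in edgeR and a median of 0.09 (0.02 without control 4). The p53 family list (19 tested) had 12 higher and 7 lower and a median of 0.05. This median ran from 0.03 to 0.09 with 1 mouse left out and was 0.02 without both mice numbered 5.

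**Figure D1:**
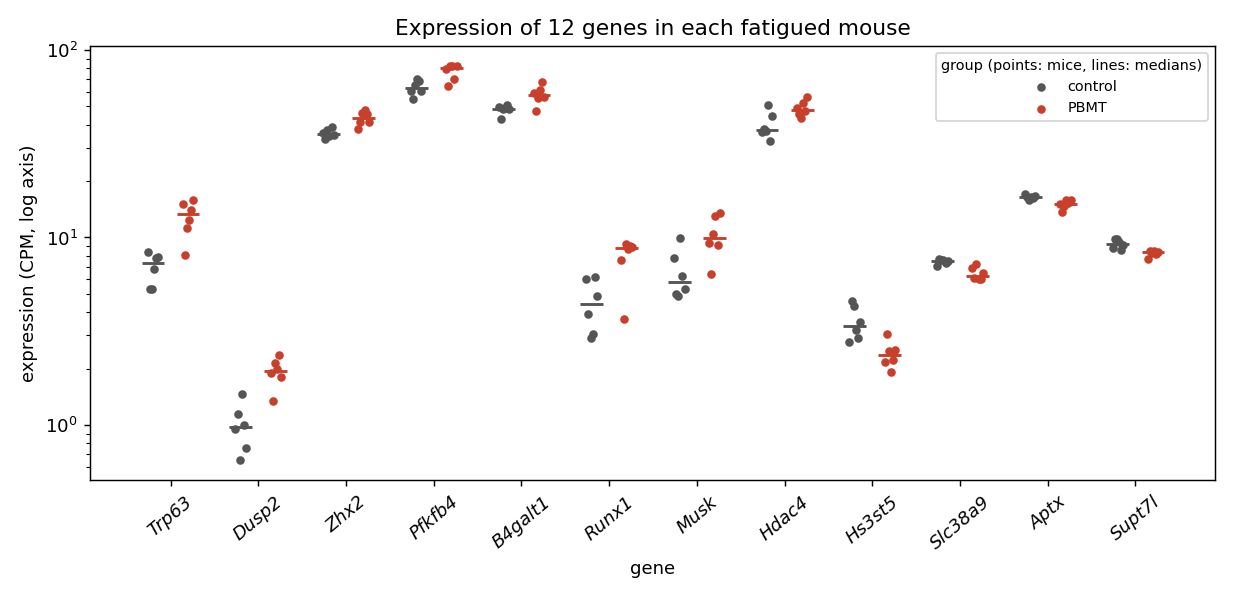
Expression (CPM, log axis) of 12 genes in each of the 12 fatigued mice. Points are mice and lines are group medians. Genes were taken from those with the smallest unadjusted p or without overlap between the groups, or from lists.

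The other named genes with the smallest unadjusted p include 3 of moderate level with small steps. Zhx2, a transcriptional repressor, was at 33.6, 35.6 and 38.9 CPM in controls and 37.9, 43.3 and 47.9 CPM with PBMT (log2 fold change 0.27, 95% interval 0.13 to 0.41; later written as log2 and its interval). Pfkfb4, whose enzyme sets the level of fructose 2,6-bisphosphate and with it glycolysis, was at 54.9, 62.8 and 70.3 CPM against 63.9, 80.5 and 82.5 CPM (log2 0.28, 0.11 to 0.44). B4galt1, a galactosyltransferase of the Golgi, was at 42.8, 48.7 and 51.1 CPM against 47.2, 57.8 and 67.7 CPM (log2 0.26, 0.10 to 0.42). In each of the 3, 5 PBMT mice were above the highest control and the groups overlapped through a single PBMT mouse. Runx1, a transcription factor that rises in denervated muscle, was at 2.92, 4.39 and 6.19 CPM in controls and 3.68, 8.76 and 9.18 CPM with PBMT (log2 0.80, 0.28 to 1.32); again PBMT 2 was the low mouse.

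Others at low levels leaned on a single mouse or lay below 1 CPM. En1, a homeobox factor, was at 0.268, 0.346 and 0.467 CPM in controls and 0.366, 0.619 and 1.18 CPM with PBMT (log2 0.98). Rn7sk, the RNA that holds the elongation factor P-TEFb inactive, was at 0.482, 0.805 and 1.03 CPM in controls and 0.986, 1.35 and 5.19 CPM with PBMT, the last in PBMT 6, and the log2 fold change of 1.29 became 0.71 without that mouse. BC048679 was at 0.476, 0.594 and 0.798 CPM against 0.732, 1.01 and 4.74 CPM, the last in PBMT 5, and its 1.42 became 0.73 without it. In both, 1 PBMT mouse stood far above the other 5.

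Lower with PBMT, Hs3st5, a heparan sulfate sulfotransferase, was at 2.78, 3.37 and 4.59 CPM in controls and 1.92, 2.36 and 3.04 CPM with PBMT (log2 -0.57, 95% interval -0.91 to -0.24). Slc38a9, the lysosomal arginine sensor of the mTORC1 pathway, was at 7.08, 7.54 and 7.66 CPM against 5.97, 6.26 and 7.18 CPM (log2 -0.21). Bcl2, which restrains apoptosis, was at 4.31, 5.91 and 8.94 CPM against 3.54, 4.71 and 5.46 CPM (log2 -0.44); control 5 was the high mouse, and without both mice numbered 5 the value was -0.24. Pik3cd, a catalytic subunit of phosphoinositide 3-kinase found mainly in leukocytes, was at 11.8, 12.7 and 16.1 CPM against 8.84, 10.7 and 13.1 CPM (log2 -0.27). The remaining 6 named genes with the smallest unadjusted p in this direction were mt-Tq (-0.59), Bcas1 (-0.73), Lrrc10b (-0.83), Tchp (-0.39), Car8 (-0.41) and Zfp41 (-0.38). Each of these 10 had an edgeR adjusted p of 0.9998.

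In 5 genes (0.0343% of those tested) no value of the PBMT mice fell within the range of the controls, which is the arrangement with the smallest exact permutation p that 6 against 6 mice allow, 0.00216 on log2 CPM. Cd27, a receptor of lymphocytes, was at 0.125, 0.285 and 0.402 CPM in controls and 0.415, 0.526 and 1.01 CPM with PBMT (log2 1.09, 95% interval 0.40 to 1.78). Nit1, an amidase, stood at 18.7, 20.4 and 20.7 CPM against 20.7, 21.8 and 22.1 CPM (log2 0.11), so that the nearest mice of the groups almost touch. Aptx, a DNA repair enzyme, stood at 15.9, 16.4 and 17.0 CPM against 13.6, 15.2 and 15.8 CPM (log2 -0.13). Supt7l, a subunit of the SAGA complex, stood at 8.62, 9.27 and 9.87 CPM against 7.67, 8.32 and 8.49 CPM (log2 -0.17), and the fifth is Phf11c (log2 -0.75). The 5 are fewer than the 31.6 genes that would separate by chance at that exact permutation p, so these 5 cannot be told apart from chance separation.

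Denervation genes are raised in muscle fibers that lose contact with their nerve. Of the denervation list (10 tested) 7 were higher and 3 lower, 3 of the higher ones at an unadjusted p under 0.05 in edgeR (1.08% of all genes were higher at that p), with a median of 0.18 against 0.00 over all genes, which became 0.07 without PBMT 1 and 0.05 without both mice numbered 5. Besides Runx1 these were Musk, the kinase that builds the endplate, at 4.89, 5.80 and 9.96 CPM in controls and 6.38, 9.91 and 13.6 CPM with PBMT (log2 0.66), and Hdac4, the deacetylase that relays loss of the nerve, at 32.9, 37.5 and 51.1 CPM and 43.5, 48.1 and 55.8 CPM (log2 0.29). The groups overlap in all 3 genes. Means were lower with PBMT for Chrna1 (3.10 CPM per kb in controls, 2.85 with PBMT), Chrnb1 (12.3 and 12.0) and Chrnd (0.741 and 0.721). Members were chosen with earlier results of these data known, so the 3 of 10 cannot be set against the 1.08%. In the atrophy list (14 tested, 10 higher, median 0.05, from 0.02 to 0.12 with 1 mouse left out) Trim63, the ubiquitin ligase of thick filaments, was at 586, 692 and 1060 CPM in controls and 739, 899 and 1367 CPM with PBMT (log2 0.39). Smad3, which carries TGF-beta signals to the nucleus, was at 130, 135 and 179 CPM against 149, 172 and 191 CPM (log2 0.22). In the TGF-beta list of 19, 13 were higher (median 0.10). With 1 mouse left out this median ran from 0.05 to 0.14, and without both mice numbered 5 it was 0.03. Fabp3, the fatty acid carrier of oxidative muscle, was at 173, 202 and 231 CPM against 215, 231 and 336 CPM (log2 0.33), the member at an unadjusted p under 0.05 of a fatty acid oxidation list in which 18 of 20 were higher (median 0.06). Bhlhe40, a repressor in the clock, was at 51.3, 64.0 and 98.6 CPM against 59.6, 97.0 and 125 CPM (log2 0.51). None of these passed an adjusted p under 0.05.

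The spread between mice of a group was wide beside the difference of the groups: the median standard deviation of log2 CPM around the group means was 0.21, against a median size of 0.07 for the log2 fold change, and 281 genes (1.93%) exceeded 1. The standard deviation is that of single mice, while the fold change compares means of 6, with a median standard error of 0.12. Of those 281, 141 (50.2%) were highest in PBMT 5, which was highest in 19.0% of all genes tested, 33 (11.7%) in control 5 (8.69% of all genes) and 24 (8.54%) in control 6 (4.16% of all genes); 202 had a mean below 1 CPM and 18 a mean of 10 CPM or more. At the other end, 1605 genes (11.0%) had a standard deviation under 0.1. Removing the group means and taking principal components of the 12 mice gave a first component with 26.1% of the variance, in which PBMT 5 scored 54.7, control 5 25.7 and control 4 -27.9, and whose largest loadings were Cxcl1, Ccl7, Tnn, Cxcl13 and Has1 on the side of PBMT 5 and Ddit4, Depp1 and Lancl3 on the other. Component 2 (16.0%) set PBMT 1, control 1 and control 2 on the side of Myh7, Ibsp, Mmp13 and Tnnc1. Control 4, PBMT 2 and control 3 lay on the other side. Component 3 (13.8%) set PBMT 3 and control 3 on the side of Mymk, Pck1 and C1qtnf3 against PBMT 4, PBMT 6 and control 5 on the side of Nr5a2 and G0s2, and component 4 (8.40%) set control 6 on the side of Hspa1b, Hspa1a and Cxcl13 against PBMT 1 and control 5 on that of Alb and Mki67.

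**Figure D2:**
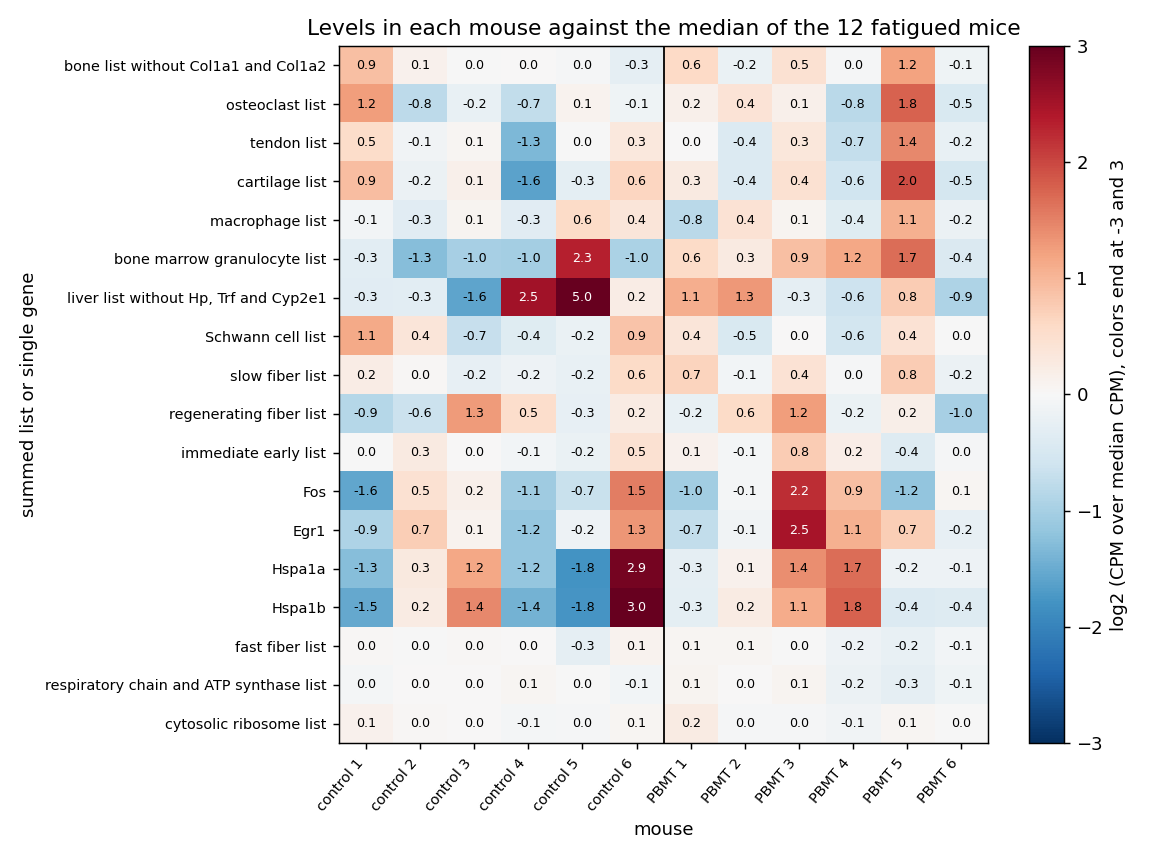
Each list sum or gene in each of the 12 fatigued mice, as log2 of its CPM over the median of the 12 mice. Colors end at -3 and 3, and the number in each cell is the value.

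Bone genes were highest in PBMT 5, as were genes of other connective tissues below. The bone list (20 genes of osteoblasts and osteocytes) had its highest value in PBMT 5 for 16 genes, and its sum was at 510, 974 and 1448 CPM in controls, control 1 the highest, and 512, 923 and 3021 CPM with PBMT. Col1a2 gave the most counts. Of 14 genes tested 12 were higher and 2 lower. Their median log2 fold change was 0.39, and it became -0.05 without PBMT 5. Without the collagens Col1a1 and Col1a2, which fibroblasts also express, the sum was at 35.2, 42.7 and 80.3 CPM in controls and 37.3, 50.2 and 98.6 CPM with PBMT. Control 1 and PBMT 5 were the highest mice of their groups, PBMT 1 (64.7 CPM) and PBMT 3 (58.6 CPM) came next, and the other 8 lay together below them.

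Not every bone gene peaked in PBMT 5. Ibsp, which codes for bone sialoprotein, was at 0, 0.481 and 24.03 CPM in controls and 0.222, 0.653 and 6.84 CPM with PBMT, and Mmp13, a collagenase of osteoblasts and hypertrophic cartilage that is on the matrix protease list, at 0.0997, 0.598 and 27.5 CPM and 0.398, 0.515 and 5.88 CPM; both were highest in control 1 and then PBMT 1. By contrast Bglap, osteocalcin of mature osteoblasts, was at 0, 0.121 and 0.451 CPM in controls and 0.0519, 0.191 and 8.02 CPM with PBMT, and Sp7, the osteoblast transcription factor, at 0.0161, 0.0513 and 0.836 CPM and 0, 0.140 and 2.75 CPM, with the highest value of each in PBMT 5. Spp1, osteopontin, was at 0.549, 1.97 and 12.7 CPM and 1.24, 1.68 and 24.01 CPM, with control 1 and PBMT 5 the high mice. The osteoclast list (9 genes, most counts from Ctsk) followed the same mice, with sums of 8.80, 13.6 and 36.1 CPM in controls and 8.68, 16.9 and 51.6 CPM with PBMT, and a median log2 fold change over 5 tested genes of 0.36 that became -0.35 without PBMT 5 and 0.60 without control 1. Bone marrow granulocyte genes summed to 0.321, 0.397 and 3.93 CPM in controls, the last in control 5, and 0.580, 1.31 and 2.48 CPM with PBMT; 2 of 12 were tested and Mpo had no count in any mouse. Without control 5 the median of those 2 went from 0.57 to 1.73, and without PBMT 5 to 0.33.

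Connective tissue and macrophage genes had the same highest mouse. All 10 tendon genes were higher with PBMT, none at an unadjusted p under 0.05 in edgeR, and all 10 had their highest value in PBMT 5; the sum was at 147, 379 and 545 CPM in controls and 228, 349 and 1006 CPM with PBMT, and the median log2 fold change of 0.30 became -0.15 without PBMT 5 and 0.47 without PBMT 4. Fmod, the tendon proteoglycan with most counts, was at 31.1, 148 and 229 CPM and 74.6, 133 and 454 CPM, and Tnmd, the marker of tendon cells, at 4.12, 11.5 and 15.0 CPM and 4.89, 9.46 and 29.2 CPM. The controls exceeded the PBMT mice at the median in both. Cartilage genes summed to 15.2, 46.0 and 87.6 CPM and 30.5, 44.7 and 179 CPM, with a median of 0.20 over 9 tested that became -0.27 without PBMT 5 and 0.37 without control 6. Sox9, the transcription factor of cartilage, was highest in PBMT 3 (9.32 CPM) and PBMT 4 (8.80 CPM) rather than PBMT 5, with a log2 fold change of 0.59 (95% interval -0.12 to 1.29) that became 0.94 without control 6. Collagen genes (39 tested, 27 higher) had a median of 0.15 and matrix proteases (31 tested, 21 higher) of 0.13, which without PBMT 5 became -0.11 and -0.09, and interstitial mesenchymal genes (10 tested, 9 higher) of 0.11, then -0.10. Left-out mice also moved them up, collagen to 0.23 without control 3 and interstitial mesenchymal to 0.21 without PBMT 1. Macrophage genes summed to 87.0, 110 and 163 CPM and 63.0, 107 and 231 CPM, most counts from Lyz2; 9 of 10 were highest in PBMT 5, and the median of 0.07 became -0.19 without it and 0.22 without control 5.

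Chemokines had the largest loadings on the first component. Ccl7, a monocyte chemokine, was at 0.0144, 0.333 and 2.09 CPM in controls and 0.193, 0.517 and 6.68 CPM with PBMT, highest in control 5 and PBMT 5 respectively. Cxcl1, a neutrophil chemokine, was at 0, 0.135 and 0.499 CPM and 0.0385, 0.309 and 6.38 CPM, and its log2 fold change of 2.60 became 0.28 without PBMT 5. Socs3, the feedback inhibitor of interleukin 6 signaling, was at 2.21, 3.45 and 16.7 CPM and 5.94, 11.0 and 30.6 CPM, again with control 5 and PBMT 5 the highest, and its 1.34 became 2.06 without control 5. The inflammation list (10 tested, 7 higher) had a median of 0.22, then -0.02 without PBMT 5 and 0.35 without control 6.

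Liver transcripts formed another axis, whose highest mouse was control 5. Of 24 liver genes, 21 were highest in control 5 and 3, Hp, Trf and Cyp2e1, in PBMT 5. Without Hp and Trf, which other tissues express, the sum was at 3.97, 10.2 and 46.9 CPM in controls and 2.86, 7.17 and 22.6 CPM with PBMT. The high value of PBMT 5 came almost wholly from Cyp2e1, a cytochrome P450, at 2.81, 6.37 and 11.8 CPM in controls and 2.08, 4.41 and 20.6 CPM with PBMT. Without that gene too, the sum was at 0.406, 1.18 and 39.0 CPM in controls and 0.638, 1.52 and 2.96 CPM with PBMT, and control 5, followed by control 4 (6.97 CPM), stood above all PBMT mice. Alb, albumin, was at 0, 0.229 and 13.6 CPM in controls and 0, 0.305 and 0.951 CPM with PBMT (log2 -2.79, 95% interval -6.14 to 0.56, then -0.71 without control 5), and control 4 held 2.91 CPM. Hp, haptoglobin, gave the most counts, at 3.56, 19.1 and 76.0 CPM and 11.5, 38.5 and 89.6 CPM (log2 0.43, then 0.10 without PBMT 5 and 0.88 without control 5). Only 6 liver genes were tested, 3 higher and 3 lower, with a median of -0.19, which without control 5 became 0.09, without PBMT 5 -0.55 and without the filter on low counts -2.93. Cps1, the urea cycle enzyme of hepatocytes, was below the filter, with 0.709 CPM in control 5 and 0.150 in control 4. Mrgprg, a receptor of sensory neurons, was below it too, with 1.56 CPM in PBMT 5 and 0.257 in PBMT 3.

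Nerve sheath genes differed most among controls. All 10 Schwann cell genes were lower with PBMT, none at an unadjusted p under 0.05 in edgeR, with a median of -0.27 that became -0.14 without control 6 and -0.41 without control 3, and 7 of 10 had their highest value in control 1. The sum was at 67.6, 119 and 243 CPM in controls and 74.5, 110 and 148 CPM with PBMT. The low ends and medians of the groups lie close, and control 1 and control 6 stand above every PBMT mouse.

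Immediate early genes had their highest sums in PBMT 3 and control 6; by gene, 14 of 30 were highest in PBMT 3, 6 in PBMT 5, which had the lowest sum, and 5 in control 6. Of 29 tested of 30 in the list, 21 were higher and 8 lower, 1 (Klf6) at an unadjusted p under 0.05 in edgeR, and the median log2 fold change of 0.21 became -0.04 without PBMT 3. The sum was at 1101, 1266 and 1745 CPM in controls and 970, 1315 and 2159 CPM with PBMT. Fos was at 6.08, 15.7 and 52.5 CPM and 7.97, 18.0 and 83.7 CPM (log2 0.46, 95% interval -1.01 to 1.94); without PBMT 3 the value was -0.25 and without control 6 it was 1.00. Egr1 was at 6.37, 14.1 and 36.0 CPM and 8.54, 18.6 and 79.6 CPM (log2 0.71, then 0.05 without PBMT 3 and 1.08 without control 6). Atf3, a stress factor, was at 69.8, 81.1 and 247 CPM and 76.2, 101 and 241 CPM, and Btg2, which restrains proliferation, at 28.2, 88.0 and 130 CPM and 38.0, 88.0 and 260 CPM. Not all members did so: Jun was at 107, 133 and 211 CPM and 78.7, 124 and 163 CPM (log2 -0.19, then -0.05 without control 6), and Nr4a1, the nuclear receptor with the most counts of the list, at 190, 363 and 452 CPM and 141, 302 and 430 CPM (log2 -0.21, then -0.06 without PBMT 5). Over the 12 mice the highest value was 13.8 times the lowest for Fos, 12.5 times for Egr1 and 3.20 times for Nr4a1.

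The acute exercise list as a whole peaked in several mice: of 24 genes, 7 were highest in PBMT 5, 5 in PBMT 3, 4 in PBMT 1, 3 in control 5 and 2 in control 6. Of the acute exercise list (21 tested, 14 higher, median 0.23, then 0.05 without PBMT 3), Xirp1, an actin-binding protein of strained fibers, was at 437, 491 and 1353 CPM and 407, 674 and 1193 CPM, and Ankrd1, which responds to stretch, at 55.6, 103 and 313 CPM and 72.5, 137 and 252 CPM; control 6 and PBMT 3 were highest in both. In the heat shock list (16 tested, 6 higher, 10 lower, median -0.01, then 0.11 without control 6), the inducible chaperones Hspa1a and Hspa1b, near-identical copies between which reads may be split, were at 6.17, 17.9 and 155 CPM and 17.8, 21.3 and 68.5 CPM (log2 -0.32), and at 5.12, 13.7 and 142 CPM and 13.2, 17.6 and 59.8 CPM (log2 -0.52). Without control 6 the log2 values were 0.78 and 0.62. With control 6 kept, they were 0.30 and 0.23 with limma voom and 0.50 and 0.42 with the replicate block. The direction of both genes thus depended on the fit as well as on control 6. Control 6 was the highest mouse and PBMT 4 the highest of its group. Hspa8, the constitutive chaperone, stayed at 901, 1035 and 1170 CPM and 937, 1027 and 1181 CPM.

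Promoters of Fos and Hspa1b are shown as those of an immediate early and a heat shock gene that differed widely among mice: 250 bases before to 50 after the gene start, from RefSeq on GRCm38.p6, 5' to 3' on the gene's strand. Capitals mark TGACG, the core of the site of CREB and ATF factors, in Fos (chr12:85473640-85473939, plus strand), and GAANNTTC, the core of the heat shock element, in Hspa1b (chr17:34959189-34959488, minus strand). Both strands were searched. TGACG is in 20.8% of all 32851 promoters, in 15 of 23 matched immediate early genes and in 7 of 12 matched heat shock genes; GAANNTTC is in 7.86% of all, in 2 of 23 and in 10 of 12. A CArG box is in 1.63% of all and in 2 of the 23. A match describes letters and no binding was measured. The Hspa1a promoter differs from that of Hspa1b at 4 bases.
Fos: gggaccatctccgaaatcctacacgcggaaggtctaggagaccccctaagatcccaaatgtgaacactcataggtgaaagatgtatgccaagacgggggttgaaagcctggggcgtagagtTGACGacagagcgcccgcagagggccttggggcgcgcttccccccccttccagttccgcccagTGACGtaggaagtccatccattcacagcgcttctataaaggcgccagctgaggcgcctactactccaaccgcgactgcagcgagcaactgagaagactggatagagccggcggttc
Hspa1b: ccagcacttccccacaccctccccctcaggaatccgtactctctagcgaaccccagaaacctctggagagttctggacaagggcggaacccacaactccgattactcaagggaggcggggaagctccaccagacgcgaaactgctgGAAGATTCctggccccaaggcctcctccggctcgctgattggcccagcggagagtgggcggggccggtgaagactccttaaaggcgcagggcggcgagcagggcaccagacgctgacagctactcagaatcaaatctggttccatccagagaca

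Slow fiber genes were highest in PBMT 5 for 4 genes and in PBMT 1 for 3. Of 10 slow fiber genes 9 were higher, 1 (Myl3) at an unadjusted p under 0.05 in edgeR, with a median of 0.20, then -0.02 without PBMT 5 and 0.53 without control 6. Myh7 was at 0.299, 3.94 and 35.0 CPM in controls and 0.225, 2.204 and 41.4 CPM with PBMT (log2 0.58, 95% interval -2.22 to 3.38), with control 6 and PBMT 5 the highest; without PBMT 5 the value was -0.26 and without control 6 it was 1.91. Tnnc1, slow troponin C, was at 0.183, 2.40 and 7.92 CPM and 0.259, 1.93 and 9.02 CPM. Myl3, the slow light chain, was at 23.5, 28.1 and 42.6 CPM and 30.1, 43.3 and 63.2 CPM (log2 0.58). Actc1, cardiac actin, which young and regenerating fibers express, was at 167, 392 and 1060 CPM and 144, 376 and 1011 CPM (95% interval of the log2 fold change -1.14 to 1.14), highest in control 3 and PBMT 3. The regenerating fiber list (7 tested) had a median of 0.03, then 0.25 without control 3 and -0.05 without control 5.

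Among what stayed within narrow bounds were the main structures of the fiber. Myh4 was at 35457, 46553 and 60243 CPM in controls and 42046, 47160 and 50328 CPM with PBMT (95% interval of the log2 fold change -0.22 to 0.22), and all 13 fast fiber genes had intervals within a 1.5-fold change. So did all 76 genes of the respiratory chain and ATP synthase coded in the nucleus, which summed to 25169, 26650 and 27805 CPM and 21997, 25508 and 28432 CPM; 71 of the 76 were lower, with a range from -0.15 to 0.03 and a median of -0.04 that became -0.08 without PBMT 1, -0.01 without PBMT 5 and 0.00 without both mice numbered 5. All 77 mitochondrial ribosome genes and all 20 fatty acid oxidation genes were held within 1.5-fold as well. Cytosolic ribosome genes were held in 80 of 81 and summed to 10573, 11319 and 12090 CPM and 10346, 10897 and 13083 CPM, and 70 of 84 with a count had their highest value in PBMT 1. That mouse was highest in 14.9% of all genes, but also in 51 of 76 respiratory chain, 42 of 77 mitochondrial ribosome and 27 of 39 proteasome genes. Among genes of cytochrome c oxidase and its assembly, 30 of 33 were within 1.5-fold and 33 within 2-fold, with a median of -0.04, then -0.06 without PBMT 1, -0.01 without PBMT 5 and 0.02 without both mice numbered 5. The same bound held 35 of 37 proteasome genes, 21 of 23 glycolysis genes, 12 of 13 mitochondrially encoded genes, 16 of 17 genes of mitochondrial dynamics, 14 of 15 of the dystrophin complex, 8 of 8 of smooth muscle and 9 of 10 of endothelium. Over all genes the same bound held 94.9% at 10 to 100 CPM and 96.1% at 100 CPM or more, so several of these lists were held no more often than genes of such levels in general. Among the 10 genes with the narrowest intervals were Arl1, a Golgi GTPase, at 88.5, 91.7 and 93.1 CPM and 89.5, 91.8 and 97.2 CPM (log2 0.02, -0.07 to 0.11), and Timm23, the inner membrane import channel, at 132, 137 and 141 CPM and 133, 139 and 147 CPM (log2 0.03, -0.07 to 0.12).

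**Figure D3:**
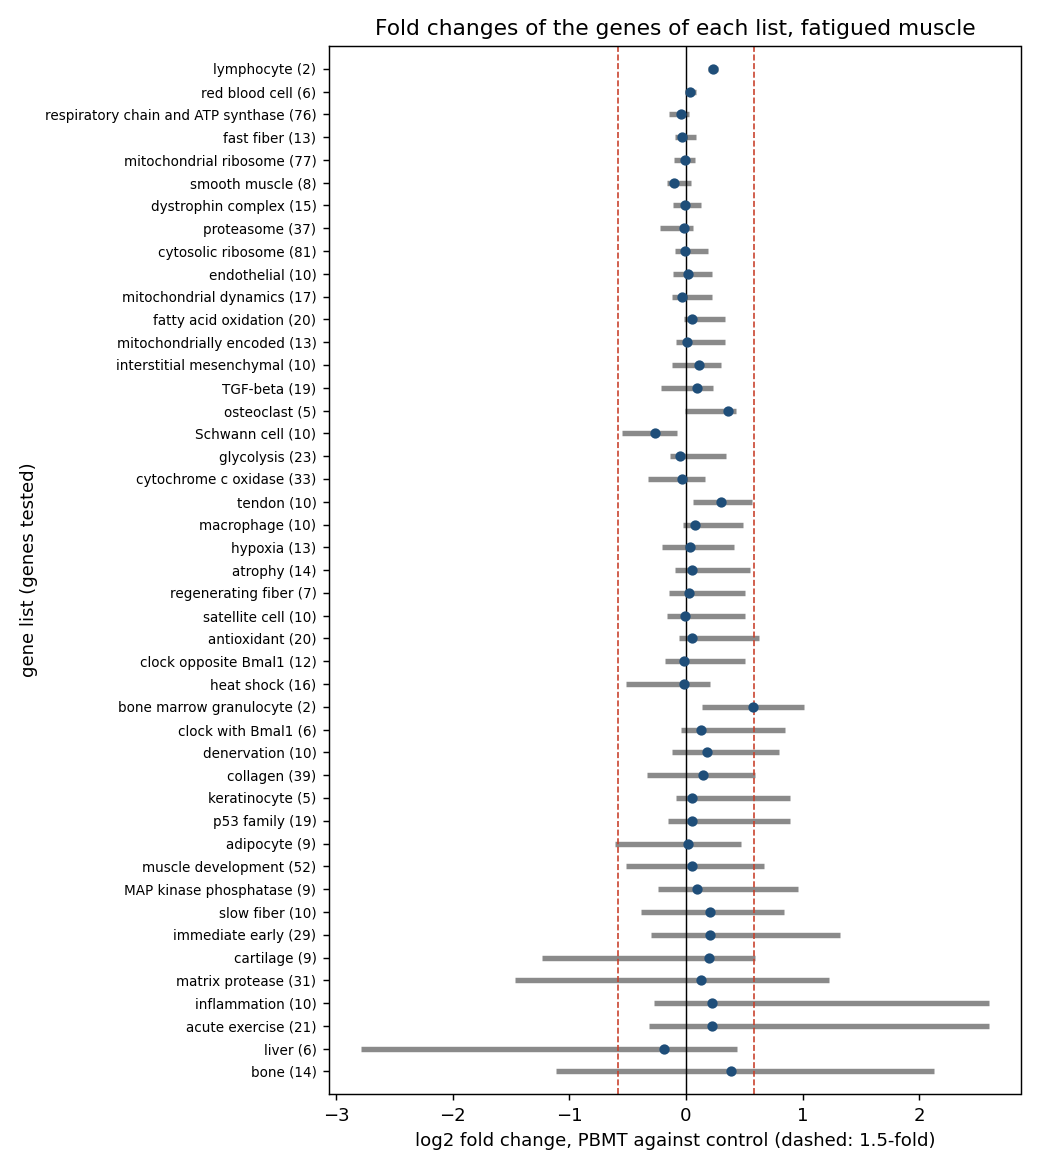
Log2 fold change (PBMT over control) within each of 45 lists with at least 1 gene tested. Bars run from the lowest to the highest gene, dots are medians, and dashed lines mark a 1.5-fold change.

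In other lists, against 70.9% of all genes, intervals lay within 1.5-fold for 14 of 20 antioxidant genes (17 higher, median 0.05), 6 of 10 satellite cell genes (median -0.01), 7 of 13 hypoxia genes (median 0.03) and 27 of 52 genes of muscle development (37 higher, median 0.05). The clock genes that cycle with Bmal1 had a median of 0.13 over 6 and those that cycle opposite to it -0.02 over 12. Medians were 0.03 for red blood cell, 0.01 for adipocyte and 0.23 for lymphocyte genes, the last over 2 genes. With 1 mouse left out they ran from -0.12 to 0.19, from -0.20 to 0.31 and from 0.06 to 0.41, and the satellite cell and opposite clock medians from -0.07 to 0.02 and from -0.06 to 0.02. In the same way the antioxidant median ran from 0.03 to 0.11, hypoxia from 0.01 to 0.07 and muscle development from 0.03 to 0.07. Without the filter on low counts the lymphocyte median was -0.10.

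The response in fatigued muscle was also compared with that of the 12 mice that were not run, as the difference of the PBMT effects over all 24; the comparisons share no control, and project and exercise state go together, so levels were not compared. In 1 of 15108 genes (0.00662%) the difference passed an adjusted p under 0.05 in edgeR, and 665 were at an unadjusted p under 0.05. That gene was Nfil3, a repressor tied to the clock, at 51.3, 59.9 and 67.2 CPM in fatigued controls and 49.1, 65.2 and 77.2 CPM in fatigued PBMT mice (log2 0.14, 95% interval -0.10 to 0.38), against a log2 fold change of -0.96 in muscle that was not run; the difference was 1.11 (0.78 to 1.44; edgeR adjusted p 0.00370). For the other genes called in that muscle the difference was -1.03 for Ccn1, a matricellular protein (fatigued 18.4, 29.0 and 65.6 CPM and 24.2, 34.2 and 51.9 CPM, log2 0.10), -2.26 for Egr1 and -0.49 for Cited2, a coregulator (21.9, 27.4 and 40.1 CPM and 20.7, 32.6 and 43.7 CPM, log2 0.16, then 0.04 without PBMT 5 and 0.28 without control 6), each at an edgeR adjusted p of 0.946. Ccn1 without PBMT 3 was at -0.04 and without control 6 at 0.42. The log2 fold change of Nfil3 in fatigued muscle was 0.09 without PBMT 3 and 0.21 without PBMT 5. Across 14021 genes in both fits, the fold changes with and without the run had a Spearman correlation of -0.0448 and the same sign in 48.2%.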

How the data were processed

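The deposited files hold raw counts per gene, made by the authors. Their processing notes name Trimmomatic, STAR 2.7.1a, Picard 2.20.4, StringTie 2.0.4, featureCounts 1.6.0, HTSeq and GRCm38; the strand setting and annotation release are not given in the sources used here. Of 55487 genes listed, 55227 matched GENCODE M21. The 12 fatigued mice, 6 per group, held 53122528 to 68726155 counts each, which gave a median standard error of 0.12 in log2. In R 4.3.3, edgeR 4.0.16 kept genes by filterByExpr (minimum count 10), scaled by TMM and tested with quasi-likelihood (robust); p was adjusted by Benjamini-Hochberg over all genes tested, with 0.05 as threshold. Fits with DESeq2 1.42.0 and limma 3.58.1 (voom with quality weights), other scalings and filters, a replicate block and each mouse left out were run as alternatives, and both mice numbered 5 were left out in an alternative chosen after seeing the data. Each mouse is 1 replicate; no pair of the 12 fatigued mice was the same within sampling noise (chi-square per degree of freedom 18.0 to 114). Permutation used all 924 arrangements. Principal components used log2 CPM (prior count 2) around group means.

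Named genes are those at an adjusted p under 0.05 (up to 10 each way); the 10 higher and 10 lower with the smallest unadjusted p and those whose groups do not overlap, leaving out unnamed gene models; in each list the member with the highest mean and those at an unadjusted p under 0.05; the 30 genes with the largest standard deviation around group means; the 10 with the narrowest intervals; the 5 largest loadings each way of the first 4 components; and Trp63, Dusp2, Runx1, Sox9, Mrgprg, Cps1, Fos, Ccn1, Egr1, Cited2 and Nfil3. The text gives those its groups turn on. Members and lists were chosen with earlier results of these data known. List sums add CPM over members.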

Additional observations from a re-analysis of the deposited data

Results flagged for a closer look

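A mouse was singled out where its value lay far from the other 5 of its group by a gap test. The test took 148 groups over 74 genes, list sums and totals. Other list sums were not tested, nor were some genes with values of single mice in the text, such as Krt5, Krt14, Mrgprg and Cps1. In the groups tested, 45 values, from fewer mice, stood out. Chance picks about 1 in 20 groups of normally distributed values. The test took levels without a log, and many of these genes and lists were chosen because they vary among mice. For both reasons the 45 cannot be set against that rate. Values are CPM.

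PBMT 5 was far above its group in BC048679 (4.74), Cxcl1 (6.38), the bone list (3021), Spp1 (24.01), Bglap (8.02), Sp7 (2.75), the osteoclast list (51.6), the tendon list (1006), Fmod (454), the cartilage list (179), Ccl7 (6.68), the liver list without Hp and Trf (22.6) and Cyp2e1 (20.6). Control 1 was far above in Myl3 (42.6), the bone list without Col1a1 and Col1a2 (80.3), Ibsp (24.03), Mmp13 (27.5), Spp1 (12.7), Sp7 (0.836) and the osteoclast list (36.1). Control 5 was far above in Bcl2 (8.94), Socs3 (16.7), the bone marrow granulocyte list (3.93), Ccl7 (2.09), the liver list without Hp and Trf (46.9) and also without Cyp2e1 (39.0), and Alb (13.6), and far below in the fast fiber list (150950).

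Control 6 was far above in Atf3 (247), Hspa1a (155), Hspa1b (142), Xirp1 (1353), Ankrd1 (313), Myh7 (35.0) and Ccn1 (65.6). PBMT 3 was far above in Cd27 (1.01), Fos (83.7), Egr1 (79.6) and Btg2 (260). PBMT 6 was far above in Rn7sk (5.19), PBMT 1 far above in Arl1 (97.2) and far below in Supt7l (7.67), PBMT 2 far below in Runx1 (3.68), and control 2 far above in Pik3cd (16.1) and far below in B4galt1 (42.8).

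The PBMT effect on Nfil3 differed between fatigued muscle and muscle that was not run by 1.11 in log2.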

How the results depend on the processing

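The count of genes at an adjusted p under 0.05 was 0 in edgeR under every scaling and filter, with limma voom, with both mice numbered 5 left out and with each mouse left out, 2 with DESeq2 defaults, 2 with DESeq2 on filtered genes (Trp63 and Dusp2 in both) and 1 with the replicate block (Trp63); the cause was not tested. Without adjustment, 157 genes higher became 302 with DESeq2 defaults, 263 with limma voom, 535 with no filter, 253 with the replicate block and 107 to 250 with 1 mouse left out, and 73 lower became 156 with DESeq2 defaults, 144 with limma voom, 466 with no filter, 113 with both mice numbered 5 left out and 57 to 150 with 1 mouse left out; the cause was not tested, beyond more genes being tested with no filter. The difference from muscle that was not run held 1 gene, 3 with DESeq2 on filtered genes and 1 to 3 with 1 mouse left out, and Nfil3 passed in all 32 alternatives. Fos (log2 0.46) ran from -0.25 without PBMT 3 to 1.00 without control 6, and Ccn1 (log2 0.10) from -0.043 without PBMT 3 to 0.42 without control 6, and was -0.02 without control 4. Myh7 (log2 0.58) was -0.95 with limma voom and -0.48 with both mice numbered 5 left out, and ran from -0.26 without PBMT 5 to 1.91 without control 6. With limma voom and with the replicate block, Hspa1a (log2 -0.32) was 0.30 and 0.50 and Hspa1b (log2 -0.52) 0.23 and 0.42; without PBMT 4 they were -0.64 and -0.93 and without control 6 they were 0.78 and 0.62. The cause of these turns was not tested. Intervals within 2-fold numbered 12531 to 13023 with other fits and 13470 at 90%. Of 675 list medians 87 changed sign, most often without PBMT 5 and without both mice numbered 5; 672 moved by less than the standard deviation between mice and 3 by more: liver without a filter (-2.93), keratinocyte without a filter (-0.35) and granulocyte without control 5 (1.73). The replicate numbers were used as a block because they are shared names, and whether mice of 1 number share an origin or session was not tested. The correlation of deviations of the pairs by number was 0.236, -0.103, 0.232, 0.159, 0.342 and -0.00035. By the same measure, 3 of 6 controls and 3 of 6 PBMT mice correlated best with their own number. Genes below 1 CPM had wider intervals and larger standard deviations between mice; how much of this comes from depth was not tested.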
